A study of Mus musculus with 2 samples.

Results

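The 10 genes described here are those by which a mouse cell senses oxygen, with the hormone gene that this sensing controls in the kidney: Epo, Hif1a, Epas1, Hif3a, Arnt, Vhl, Egln1, Egln2, Egln3 and Hif1an. They were chosen by symbol, and each matched 1 of the 43346 gene rows. Polyadenylated RNA had been sequenced in 2 libraries from kidney tissue of a female mouse of the inbred strain C57BL/6J, aged 10 weeks. The labels name no treatment, and the libraries form 1 group. The labels name both as technical replicates of 1 biological replicate and give the second a later date; they are called library 1 and library 2 here. Every SD below is therefore technical (n = 2 libraries) and carries no information on differences between animals, and with 1 library on each side no p-value was computed.

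In the presence of oxygen, prolyl hydroxylases of the EGLN family modify the alpha subunits of the hypoxia-inducible factors (HIF), and the VHL protein then marks these subunits for destruction. When oxygen falls, the alpha subunits persist, pair with ARNT and switch on genes for glycolysis, vessel growth, iron handling and red cell formation. In the adult kidney, interstitial cells with features of fibroblasts and pericytes make erythropoietin, the hormone that drives red cell formation, mainly under HIF2 alpha, the product of Epas1. Much of the control is by protein stability, which RNA levels do not show.

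Library 1 held 28263730 expected counts and library 2 held 20720537. Mitochondrially encoded genes and 7 nuclear copies of them held 74.5% of the TPM of library 1 and 36.5% of that of library 2. TPM is a length-corrected share of a library, so these genes left less of it for all others in library 1. All 6 proximal tubule markers were at TPM 1 or more in both libraries, and their summed level was 787 TPM in library 1 and 5573 TPM in library 2. The markers differed unevenly: Miox had 63.5 and 2196 TPM, whereas Cubn had 52.0 and 69.6 TPM. With counts scaled as described below, 3 of the 6 were 2-fold or more higher in library 2 and 3 differed less. The content of proximal tubule in the libraries was not tested. The log2 ratio between the libraries rose with the GC content of transcripts across genes, so the GC content of each compared gene of the 10 is given with its ratio; the part of GC content in these differences was not tested.

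Of the 10 genes, 7 were at TPM 1 or more in both libraries, and Epo and Hif3a were under 1 in both. Egln2 was under 1 in library 1 alone. The TPM of 9 genes was higher in library 2, Hif1a being the exception. With mitochondrial genes and their copies left out of TPM, 5 genes were higher in library 1: Hif1a (170 and 50.7 TPM), Arnt (31.6 and 23.1), Vhl (20.1 and 16.4), Egln1 (50.3 and 48.1) and Egln3 (10.6 and 9.30). By mean TPM the order ran Hif1a, Epas1, Egln1, Egln2, Arnt, Vhl, Hif1an, Egln3, Epo and Hif3a. The ranges of the 2 libraries overlapped for 8 of the 9 pairs of neighbours in that order, and Egln3 and Epo were the pair whose ranges lay apart. In bulk tissue, fewer cells of a type and less RNA per cell cannot be told apart.

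**Figure D1:**
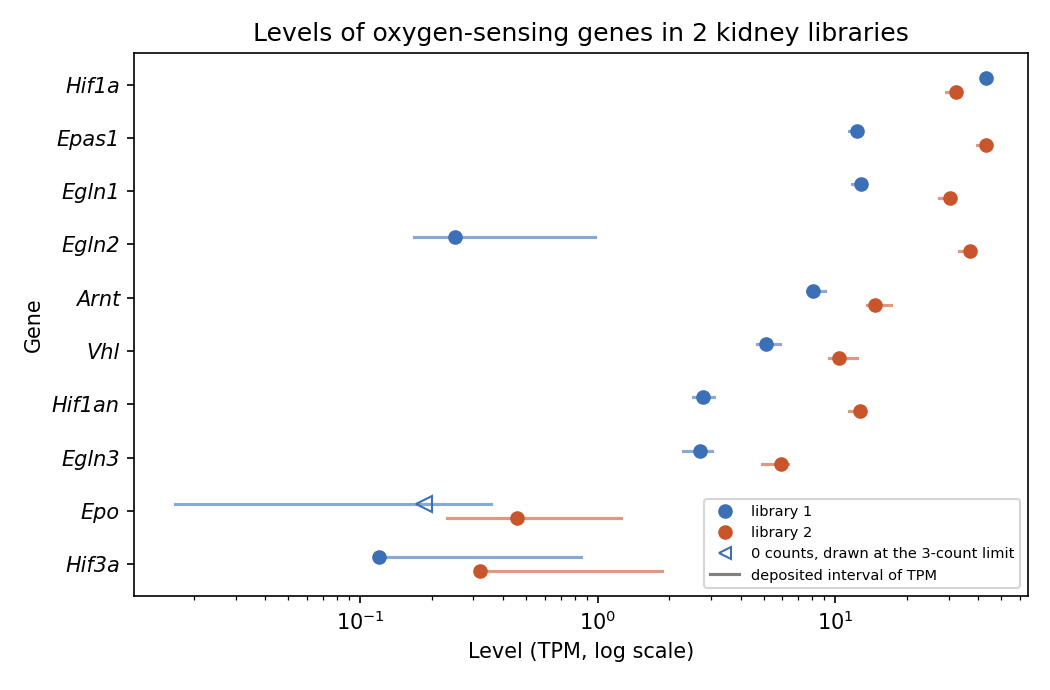
Level of each gene in TPM on a log axis, with library 1 in blue and library 2 in orange; lines are the deposited intervals of TPM, and the open triangle marks Epo in library 1, which had 0 counts and is drawn at the 0.186 TPM that 3 counts would give. Hif1a is the gene whose library 1 value, 43.3 TPM, lies above its library 2 value, 32.2 TPM, and Egln2 shows the widest gap, from 0.25 to 37.0 TPM.

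Epo, on chromosome 5 (mm10, chr5:137483020-137533242, minus strand), encodes erythropoietin. It had 0 counts in library 1 and 4 counts in library 2 (exact Poisson 95% interval 1.09 to 10.24). The deposited levels were 0 and 0.46 TPM. For the 0 of library 1, the exact Poisson 95% interval reached 3.69 counts, and the deposited interval reached 0.357 TPM. The fixed limit of 3 counts, used to draw the 0, would give 0.186 TPM. A difference between the libraries was not detectable at this depth, and no fold is given. The posterior mean levels in the same files were 0.17 and 0.72 TPM, both above the deposited TPM. All 4 counts were placed on the transcript ENSMUST00000031723, of 5 exons and 715 bases, with a GC content of 56.6%. Over all its annotated transcripts, Epo shares 104 exon bases with the neighbouring gene Gnb2 on the same strand. The other Epo transcripts counted here, ENSMUST00000111038 and ENSMUST00000111039, held 0 counts in both libraries.

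Markers of the interstitial cells that can make the hormone were present. Of 10 fibroblast and pericyte markers, 6 were at TPM 1 or more in both libraries. Over all 10 markers the summed level was 142 TPM in library 1 and 191 TPM in library 2. Dcn, a matrix proteoglycan of fibroblasts, had 46.2 and 65.5 TPM, and Nt5e, the ecto-nucleotidase that marks cortical fibroblasts, had 25.5 and 34.2 TPM. Rgs5, a pericyte signalling regulator, had 43.2 and 32.6 TPM. Pdgfrb, a receptor of pericytes, Col1a1, a fibrillar collagen, and Cspg4, a pericyte proteoglycan, were under TPM 1 in library 1, at 0.63, 0.37 and 0.03, and had 15.5, 6.19 and 3.79 TPM in library 2. Their GC contents were 55.1%, 58.9% and 59.2%. With counts scaled as described below, their log2 ratios were 3.31, 2.73 and 5.64. With the trend on GC content removed, they were 0.85, -1.75 and 1.01. Gli1, a marker of perivascular cells, was under 1 in both, at 0.02 and 0.49 TPM. The 5 liver markers, from the other organ known to make the hormone, summed to 8.54 and 51.0 TPM. All 4 markers of oxygen-sensing carotid body or adrenal chromaffin cells, Th, Dbh, Pnmt and Chga, had 0 counts in both libraries. Red blood cell markers, 5 genes that carry or make haem protein, summed to 43.1 and 2408 TPM; their part in the values of the erythropoietin receptor and other genes given here was not tested.

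Among the alpha subunits, Hif1a and Epas1 were both well represented and Hif3a was scarce. Hif1a, which encodes HIF1 alpha (chr12:73901375-73947530, plus strand), had 5865 counts in library 1 and 2304 in library 2, or 43.3 and 32.2 TPM (mean 37.7 ± 7.85, SD, n = 2). Epas1, which encodes HIF2 alpha (chr17:86753700-86833410, plus strand), had 1949 and 3631 counts, or 12.3 and 43.1 TPM (27.7 ± 21.7, SD, n = 2). Hif3a, which encodes a subunit with shorter forms that can restrain the other two (chr7:17031507-17062427, minus strand), had 23 and 33 counts, or 0.12 and 0.32 TPM (0.22 ± 0.141, SD, n = 2). Hif1a was the highest of the 10 genes in library 1 and Epas1 the highest in library 2. As shares of the TPM of the alpha subunits, Hif1a took 77.6% in library 1 and 42.6% in library 2. Epas1 took 22.1% and 57.0%, so which of the subunits led differed between libraries of 1 tissue sample. The posterior mean levels of Hif3a were 0.43 and 0.99 TPM, higher than its TPM in both libraries.

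To compare the libraries gene by gene, counts were scaled by TMM, and a gene was called when its ratio was 2-fold or more. Of the 15553 genes that reached 10 counts in total, 37.4% were called higher in library 2. The share higher in library 1 was 25.0%. Among the 9 of the 10 genes with enough counts, Egln2 was called higher in library 2 and Hif1a higher in library 1. The median log2 ratio of these 9 genes, library 2 over library 1, was -0.06, and that of all genes was 0.17 with quartiles of -1.0 and 2.18. With total counts in place of TMM the median of all genes moved by 0.85. Then 50.3% of genes passed the call toward library 2 and 5.45% toward library 1, and 3 of the 9, Epas1, Hif1an and Egln2, passed it toward library 2 and 0 toward library 1.

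Hif1a had a log2 ratio of -1.75, or 0.297-fold in library 2 (exact 95% interval 0.282 to 0.311, counting error only). With total counts the log2 ratio was -0.90, short of the call. Its transcript had a GC content of 41.3%, and 10% of genes with at least 100 counts lay below 41.6%. The smooth trend of the ratio on GC content stood at -1.50 there, and -0.25 was left once the trend was removed. Epas1 had a log2 ratio of 0.49 (1.33-fold to 1.49-fold) at a GC content of 52.5%, and -0.66 with the trend removed, so its direction changed. Hif3a had 0.11 (0.617-fold to 1.93-fold), an interval that includes 1, and -0.78 with the trend removed. The Epas1 to Hif1a ratio of TPM was 0.285 in library 1 and 1.34 in library 2; with TMM-scaled counts that is a 4.74-fold change, and with the trend removed it was 0.756-fold.

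**Figure D2:**
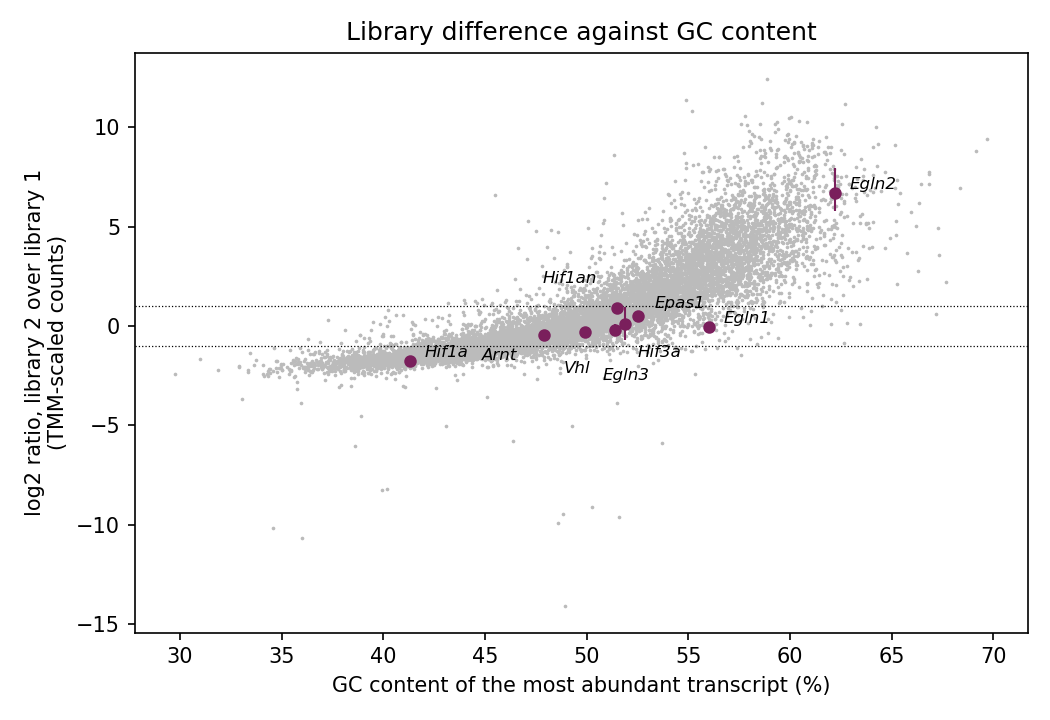
Log2 ratio of TMM-scaled counts, library 2 over library 1, against the GC content of the most abundant transcript; each grey point is 1 of 11092 genes with at least 100 counts, purple points are 9 of the 10 genes with exact 95% intervals, and dotted lines mark 2-fold. Hif1a and Egln2 lie within the cloud at its low-GC and high-GC ends, and Egln1 lies at the lower edge of the cloud at 56.0% GC.

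Hif1a was counted on a pair of transcripts that differ in their first exon and in 42 coding bases. ENSMUST00000021530 had 60.12% of the gene's TPM in library 1 and 63.23% in library 2, and ENSMUST00000110461 had 39.69% and 35.25%. The shares thus differed by a few percentage points while the counts of the gene differed far more. The first transcript begins with an exon of 421 bases that holds the first 35 coding bases, and the second begins upstream with a noncoding exon of 124 bases. In exon 11 the first transcript also has 42 bases, 14 codons in frame, at chr12:73941688-73941729 (GENCODE M21, mm10, plus strand), that the second lacks. They are shown because they are what separates the coding sequences inside the gene; capitals mark the added bases, and the second line is the junction without them.
ENSMUST00000021530: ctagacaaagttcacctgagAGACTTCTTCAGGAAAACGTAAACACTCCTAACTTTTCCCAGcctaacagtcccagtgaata
ENSMUST00000110461: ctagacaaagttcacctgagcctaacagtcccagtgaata
An antisense gene, Gm15283, shares 330 exon bases with Hif1a on the opposite strand and had 0 counts in both libraries. Hif1a was the 1 gene of the 10 whose leading transcript shared a stretch of at least 100 bases at 95% identity with other annotated genes, which were Gm15283 and Gm49321. Gm49321 overlaps Hif1a on the same strand and is not among the 43346 gene rows. Reads from that stretch could therefore not be counted on Gm49321, and they cannot be assigned to either gene with certainty.

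Arnt, which encodes the common partner of the alpha subunits (chr3:95434388-95497240, plus strand), had 934 counts in library 1 and 900 in library 2. Its levels were 8.06 and 14.6 TPM (11.4 ± 4.65, SD, n = 2). The log2 ratio was -0.46 (0.663-fold to 0.798-fold) at a GC content of 47.9%, and -0.12 with the trend removed. With total counts it was 0.39, so the direction depends on the scaling. Hif1a exceeded Arnt 5.37-fold in TPM in library 1 and 2.2-fold in library 2.

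The leading Arnt transcript was not the same in the 2 libraries. ENSMUST00000090804 had 29.71% in library 1 and 70.56% in library 2, whereas ENSMUST00000107161 had 53.39% and 6.69%. ENSMUST00000102749 had 0% and 12.27%. By the posterior means, ENSMUST00000090804 led in both, with 40.81% and 63.34%, against 36.86% and 6.54% for ENSMUST00000107161. ENSMUST00000102749 holds all 2331 coding bases of ENSMUST00000090804 and 45 others. The coding sequences of ENSMUST00000090804 and ENSMUST00000107161 differ by 3 bases at chr3:95493698-95493700 and by 45 bases at chr3:95493816-95493860 (GENCODE M21, mm10, plus strand), all in frame. The 45 bases that ENSMUST00000107161 lacks are shown in capitals, with the junction without them on the second line.
ENSMUST00000090804: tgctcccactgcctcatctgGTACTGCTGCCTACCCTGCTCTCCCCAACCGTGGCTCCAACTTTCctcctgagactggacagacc
ENSMUST00000107161: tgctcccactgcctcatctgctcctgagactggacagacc
Of 6 genes with at least 2 transcripts and a level in both libraries, 4 had the same leading transcript in both, and the exceptions were Arnt and Egln2. Hif3a, among the 4, rests on 23 and 33 counts, all placed on ENSMUST00000108492. By the posterior means another Hif3a transcript led, ENSMUST00000139224, at 40.31% and 42.41%.

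**Figure D3:**
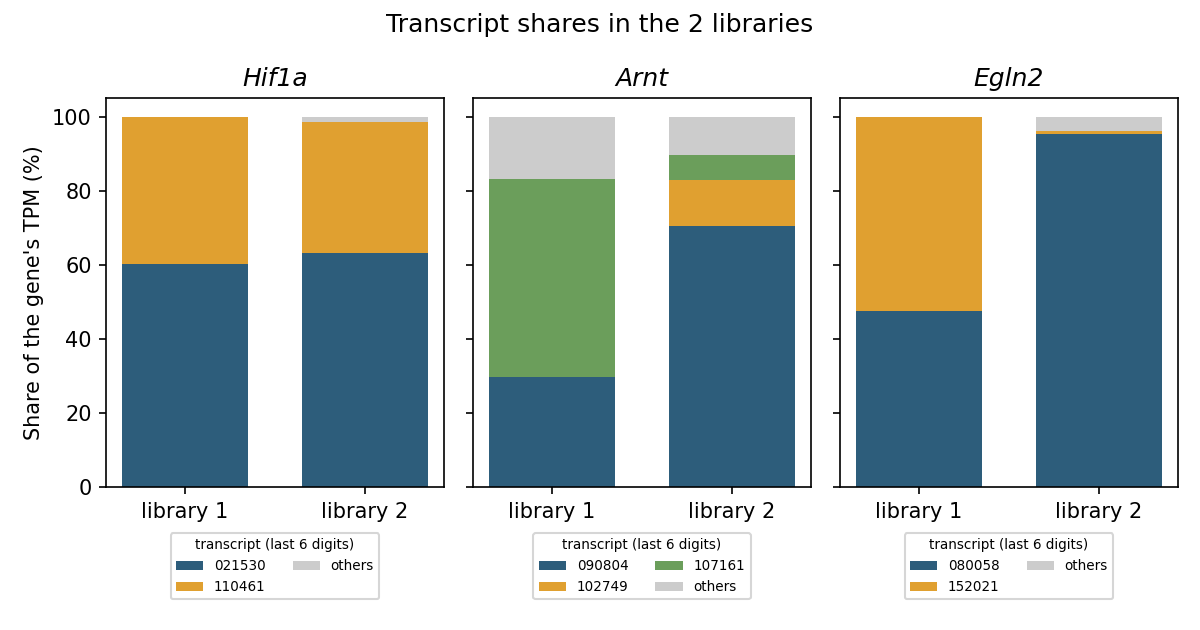
Share of each gene's TPM, in percent, taken by its transcripts in library 1 and library 2, for Hif1a, Arnt and Egln2; colours are transcripts at 10% or more in either library and grey is the sum of the others. The Hif1a bars are nearly alike, the leading Arnt transcript is not the same in both libraries, and the Egln2 bar of library 1 rests on 8 counts.

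Among the prolyl hydroxylases, Egln2 differed widely between the libraries, whereas the TMM-scaled ratios of Egln1 and Egln3 were close to 1. Egln1, which encodes PHD2, the main oxygen sensor of most tissues (chr8:124908587-124949324, minus strand), had 1315 counts in library 1 and 1670 in library 2, or 12.8 and 30.5 TPM (21.7 ± 12.5, SD, n = 2). Egln2, which encodes PHD1 (chr7:27158658-27166802, minus strand), had 8 and 1141 counts, or 0.25 and 37.0 TPM (18.6 ± 26.0, SD, n = 2). Egln3, which encodes PHD3 and is itself a HIF target (chr12:54178981-54203860, minus strand), had 207 and 240 counts, or 2.71 and 5.90 TPM (4.31 ± 2.26, SD, n = 2). Egln1 thus led the family in library 1, with 81.2% of its TPM, and Egln2 led in library 2, with 50.4%. The share of Egln2 in library 1 was 1.6%, and that of Egln3 was 17.2% and 8.0%. Egln1 exceeded Egln3 in TPM by a similar factor in both libraries, 4.73-fold and 5.17-fold.

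Egln2 was 102-fold higher in library 2 (54.4-fold to 250-fold, log2 ratio 6.68). Its GC content of 62.2% was the highest of the 10 genes; among genes with at least 100 counts, 10% of genes lay above 57.9%. The trend stood at 5.92 there, and 0.76 was left, short of the call. The 8 counts of library 1 (exact Poisson 95% interval 3.45 to 15.76) are too few to give its transcript shares, which read 47.46% for ENSMUST00000080058 and 52.54% for the 439-base ENSMUST00000152021. In library 2 the first of these had 95.39%. Egln2 and Cyp2t4, on opposite strands, share 11 exon bases, and Cyp2t4 had 0 counts in both libraries.

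Of the 9 genes, Egln1 stood farthest from the GC trend. Its log2 ratio was -0.06 (0.891-fold to 1.03-fold), whereas the trend at its GC content of 56.0% was 3.01, which left -3.07. With the trend removed, 14.4% of 14298 genes passed the call toward library 2 and 13.0% toward library 1. Of the 9 genes, 0 were then called higher in library 2 and Egln1 was called higher in library 1. Among genes with at least 100 counts, 10% of such remainders lay below -1.06. With total counts the log2 ratio of Egln1 was 0.79, so its direction depends on the scaling.

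The GC content of Egln1 was uneven along the transcript. It was 87.8% over the 270 bases of the 5′ untranslated region, 63.4% over the 1203 coding bases and 47.8% over the 2121 bases of the 3′ untranslated region. In Egln2 these values were 72.2%, 60.6% and 59.2%. In Hif1a they were 74.9%, 43.2% and 31.7%. How the unevenness bears on the ratios was not tested. The start of each coding sequence is shown because it lets the base composition of these 3 genes be seen side by side; capitals mark the start codon. The Egln1 stretch lies at chr8:124948935-124949054 and the Egln2 stretch at chr7:27165379-27165498, both on the minus strand, and the Hif1a stretch is spliced from its first exons (GENCODE M21, mm10).
Egln1: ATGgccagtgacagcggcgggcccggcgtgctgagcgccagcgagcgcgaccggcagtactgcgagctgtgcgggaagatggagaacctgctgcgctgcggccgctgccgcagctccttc
Egln2: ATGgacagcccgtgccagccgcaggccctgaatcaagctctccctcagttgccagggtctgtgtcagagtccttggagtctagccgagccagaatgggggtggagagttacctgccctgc
Hif1a: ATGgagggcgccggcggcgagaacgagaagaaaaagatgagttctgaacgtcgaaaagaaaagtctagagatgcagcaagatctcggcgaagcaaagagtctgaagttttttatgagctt
Over these 120 bases the GC content was 71.7% in Egln1, 61.7% in Egln2 and 46.7% in Hif1a, with 15, 3 and 9 CpG pairs.

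Egln3 had a log2 ratio of -0.19 (0.724-fold to 1.06-fold) at a GC content of 51.4%, and -0.89 with the trend removed. With total counts the ratio was 0.66. Hif1an encodes FIH, the asparaginyl hydroxylase that blocks the activation domain of the alpha subunits (chr19:44562850-44576274, plus strand). It had 513 counts in library 1 and 1256 in library 2, or 2.77 and 12.7 TPM (7.74 ± 7.02, SD, n = 2). Its log2 ratio was 0.89 (1.67-fold to 2.05-fold) at a GC content of 51.5%, just short of the call, and 0.15 with the trend removed. Vhl encodes the subunit that recognises the hydroxylated alpha subunits (chr6:113623959-113631633, plus strand). It had 412 and 446 counts, or 5.13 and 10.4 TPM (7.77 ± 3.73, SD, n = 2). Its log2 ratio was -0.29 (0.713-fold to 0.936-fold) at a GC content of 49.9%, -0.49 with the trend removed and 0.56 with total counts. The Vhl to Arnt ratio of TPM was 0.636 in library 1 and 0.711 in library 2.

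The other genes of the pathway were taken from 8 lists of 86 genes, of which 60 were at TPM 1 or more in both libraries. Of 85 with enough counts, 43 were called higher in library 2, 17 higher in library 1 and 25 neither, beside 37.4% and 25.0% of all genes, and their median log2 ratio was 1.03. With total counts 55 passed the call toward library 2 and 1 toward library 1, beside 50.3% and 5.45% of all genes. With the GC trend removed, 17 of 80 passed it toward library 2 and 6 toward library 1, with a median of -0.07. The shares of all genes were then 14.4% and 13.0%. These shares of all genes also stand beside the counts of each list below. A count near its share is not a result about that list.

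The partners of VHL in its ubiquitin ligase were all at TPM 1 or more in both libraries. Of 6 genes, 3 passed the call toward library 2 and 2 toward library 1; the median log2 ratio was 1.17. With total counts these numbers were 4 and 0, and with the GC trend removed they were 1 and 0 of 5, with a median of 0.40. The elongins join VHL to the cullin, and their TMM-scaled ratios had opposite signs. Elob had 2.98 and 308 TPM (log2 ratio 5.37). Eloc had 136 and 115 TPM (-1.45). With the GC trend removed both were positive, Elob (57.4% GC) at 1.64 and Eloc (38.0% GC) at 0.40. Cul2, the cullin of the complex, had 24.9 and 19.4 TPM (-1.71), and Nedd8, the modifier that activates it, had 12.0 and 165 TPM (2.53).

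Of 7 partners and coactivators of HIF, 2 passed the call toward library 2 and 1 toward library 1; the median was -0.22. Total counts gave 3 and 0, and GC trend removal gave 0 and 3 of 7 with a median of -0.92. Cited2, which competes with HIF for its coactivator, had 52.3 and 59.4 TPM (-1.13), and Ep300, that coactivator, had 7.91 and 13.8 TPM (-0.32). Kat5, an acetyltransferase, had 1.48 and 17.4 TPM (2.24). Cited4, a relative of Cited2, had 0 counts in library 1 and 34 in library 2. Of 12 other regulators of HIF stability or translation, 5 passed the call toward library 2 and 2 toward library 1; the median was 0.62. Total counts gave 8 and 1, and GC trend removal gave 2 and 2 of 11 with a median of -0.12. The chaperones of the HSP90 family were the most abundant, Hsp90ab1 at 353 and 605 TPM (0.51) and Hsp90aa1 at 448 and 226 TPM (-1.58). Rack1, a ribosomal scaffold that can promote loss of HIF1 alpha, had 15.0 and 403 TPM (4.58), and Ireb2, an iron-regulated RNA-binding protein, had 40.7 and 27.5 TPM (-1.88). With the GC trend removed, Rack1 (50.7% GC) was at 4.11, Hsp90ab1 at -0.07, Hsp90aa1 at -0.24 and Ireb2 at -0.12.

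Among known HIF targets, the calls of glucose and energy genes leaned toward library 2 with TMM, total counts and GC trend removal. So did the calls over all genes, at 14.4% toward library 2 and 13.0% toward library 1 with the GC trend removed. The direction alone is therefore not particular to this list. The median of the vessel, matrix and signal genes and the calls of the iron genes depended on the setting. Of 16 genes of glucose and energy use, 11 passed the call toward library 2 and 2 toward library 1; the median was 2.99, or 2.67 when genes at 0 in 1 library were set at their bound. Total counts gave 13 and 0, and GC trend removal gave 7 and 0 of 15 with a median of 1.00. Gapdh, a glycolytic enzyme, had 38.9 and 1838 TPM (5.89), Aldoa, an aldolase, had 3.51 and 763 TPM (6.47), and Pgk1, a glycolytic kinase, had 127 and 501 TPM (0.67). Bnip3l, a mitophagy receptor, had 107 and 121 TPM (-1.38). Slc16a3, a lactate exporter, was under TPM 1 in both libraries, at 0 and 0.95. Pfkfb4, which makes an activator of glycolysis, had 0 counts in library 1 and 167 in library 2. With the GC trend removed, Gapdh was at 2.55, Aldoa at 2.76, Pgk1 at 0.53 and Bnip3l at 0.04. Pfkfb4 was then at 5.85, which rests on 0 counts in library 1.

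Of 18 targets among vessel, matrix and signal genes, 6 passed the call toward library 2 and 2 toward library 1; the median was 0.58. Total counts gave 11 and 0, and GC trend removal gave 2 and 1 of 18 with a median of -0.15. Ndrg1, a stress-responsive gene, was the most abundant, at 516 and 1609 TPM (0.32). Vegfa, the vascular growth factor, had 14.4 and 113 TPM (1.39), and Car12, a carbonic anhydrase, had 62.9 and 113 TPM (-0.46). Angptl4, a regulator of lipoprotein lipase, had 0.38 and 14.9 TPM (3.42), and Lox, a collagen crosslinker, had 2.97 and 2.87 TPM (-1.45). Of 7 iron genes, 3 passed the call toward library 2 and 4 toward library 1; the median was -1.01. The calls toward library 1 were absent with total counts, at 3 and 0, and with the GC trend removed, at 2 and 0 of 7 with a median of -0.02. Tfrc, the transferrin receptor, had 36.5 and 25.6 TPM (-1.82), and Cp, ceruloplasmin, had 70.0 and 68.6 TPM (-1.50). With the GC trend removed, Tfrc (39.8% GC) was at -0.14 and Cp (42.5% GC) at -0.15. Slc40a1, the iron exporter ferroportin, had 38.4 and 41.8 TPM (-1.21), and Trf, transferrin, had 20.03 and 48.4 TPM (1.74). Hmox1, a haem oxygenase, had 1.37 and 25.2 TPM (2.86). The 2 iron genes past the call with the GC trend removed were Trf (50.1% GC) at 1.47 and Hmox1 (53.3% GC) at 1.37. Cybrd1, a duodenal iron reductase, was under 1 in both, at 0.23 and 0.28 TPM.

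Of 11 tested genes of erythropoietin transcription and signalling, 8 passed the call toward library 2 and 1 toward library 1; the median was 2.11. Total counts gave 8 and 0. With the GC trend removed, 1 of 10 passed toward library 2 and 0 toward library 1, and the median turned to -0.34. Epor, the receptor of the hormone, had 0 counts in library 1 and 88 in library 2, or 3.26 TPM. Hnf4a, a nuclear receptor that acts on the Epo enhancer in hepatic cells, had 34.2 and 224 TPM (1.39). Rxra had 1.26 and 35.6 TPM (3.50). With the GC trend removed, Hnf4a (53.7% GC) was at -0.28 and Rxra (57.0% GC) at -0.06. Epor (59.6% GC) was then at 2.48, from 7.28, and was the 1 gene of 10 past the call. Both values of Epor rest on 0 counts in library 1. Jak2, the kinase bound to the receptor, had 17.5 and 14.6 TPM (-1.55). Gata4 had 0 counts and 1 count. Of 8 genes for dioxygenases of collagen and histones or their subunits, 5 passed the call toward library 2 and 3 toward library 1. The median was 1.99. Total counts gave 5 and 0, and GC trend removal gave 2 and 0 of 7 with a median of 0.52. P4hb, the shared subunit of the collagen prolyl hydroxylases, had 59.4 and 313 TPM (1.08), Plod2, a lysyl hydroxylase, had 23.0 and 19.0 TPM (-1.64), and Kdm6a, a histone demethylase, had 14.0 and 11.8 TPM (-1.54). P4htm, a membrane-bound prolyl hydroxylase, had 0 counts in library 1 and 55 in library 2.

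**Figure D4:**
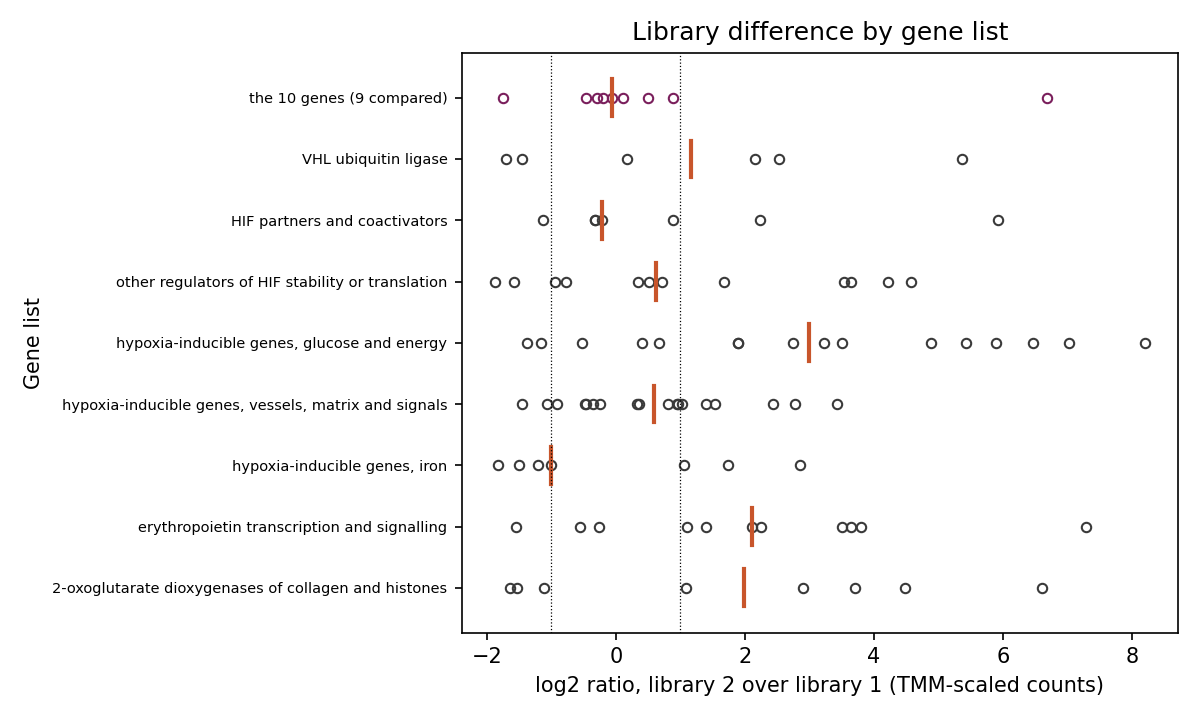
Log2 ratio of TMM-scaled counts, library 2 over library 1, for 9 of the 10 genes (top row) and for 8 lists of other pathway genes; circles are genes, orange bars are medians and dotted lines mark 2-fold. Of the top row, Hif1a at -1.75 and Egln2 at 6.68 lie past the dotted lines, and the other 7 lie between them.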

How the data were processed

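Gene and transcript tables of 2 libraries of 1 kidney were used, on mm10 with annotation release M4, per the text deposited beside them; no quantifier or aligner name is given in the sources used here. The expected counts are unnormalized values of the authors, per the file headers. TPM was deposited as a length-corrected share of a library, per the file headers. Transcript shares within a gene were deposited in percent, and the bounds of the TPM interval, treated as a score, were deposited with no stated level. Of the 20 TPM values of the 10 genes, 5 lay outside that interval, which goes with the posterior mean.

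GENCODE M21, which uses the same assembly, gave symbols and coordinates for 42462 rows (98.0%). Counts were rounded, and library sizes were scaled by TMM over all gene rows (edgeR 4.0.16). Log2 ratios used a prior count of 0.5 and genes with at least 10 counts. Exact conditional binomial 95% intervals (scipy 1.17.1) and limits of 3 counts for a 0 cover counting error only. GC content was taken over the most abundant transcript with a reference length within 10%; the annotated lengths of Epas1 and Egln1 differ from the deposited ones. The trend on GC content was fitted by lowess (statsmodels 0.14.6, span 20%). Shared stretches were searched with blastn 2.17.0. The calculation of the ratio was checked on simulated counts with balanced changes and no GC trend. That check cannot show how well the scaling holds in these libraries.

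The text names all 10 genes, their transcripts at 10% or more, and from each list genes by abundance, extreme ratio or a level under TPM 1. The genes and lists were chosen with earlier results of these data known. Alternatives were other scalings, TPM ratios, a prior count of 2, no filter, posterior means, GC trend removal and leaving out each library. TMM factors from genes with at least 10 counts were an alternative added after the ratios had been seen; the main scaling is the planned one, over all gene rows.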

Additional observations from a re-analysis of the deposited data

How the results depend on the processing

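Against 1 gene called higher in library 2, total counts gave 3, the ratio of TPM 7, no filter on low counts 2 (adding Epo at 4 counts) and GC trend removal 0. Of all genes, 37.4% passed toward library 2 in the main setting, 50.3% with total counts and 14.4% with GC trend removal. Toward library 1 these shares were 25.0%, 5.45% and 13.0%. Shares of all genes are not given for the other settings, so the counts there, such as 7, cannot be read as particular to these genes. Against 1 called higher in library 1, total counts and the ratio of TPM each gave 0; GC trend removal gave 1, but it was Egln1 in place of Hif1a. Upper-quartile scaling, DESeq2 size factors, a prior count of 2 and posterior mean counts each gave 1 in both directions. So did TMM factors from genes with at least 10 counts, a setting chosen after seeing the data; it moved Egln1 from -0.06 to -0.11 on the log2 scale and its interval to 0.861-fold to 0.996-fold, which leaves out 1 where the planned scaling does not. The median of the mean levels was 9.56 TPM, 22.81 TPM without mitochondrial genes and their copies, and 3.95 to 13.67 TPM with 1 library left out. By posterior means, 5 of 7 genes had the same leading transcript in both libraries. The exceptions were Egln2 and Epo, and Epo entered this count with 0 and 4 counts. The cause of these changes was not tested. No paired analysis was possible because there is 1 group. Low counts limit Epo, Hif3a and, in library 1, Egln2.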
